A study of Mus musculus and Homo sapiens with 22 samples.

Results

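The regions described are transcript starts: the 100 nucleotides that follow nucleotide 6, counted from the 5′ end of each annotated transcript. They are the first 100 positions at which an icSHAPE score can be given. A start was taken in a file when the transcript was at least 600 nt long and at least 60 of these 100 nucleotides had a score. The rule uses length and coverage and not the level of the scores. Over 12 files it gave 15275 starts among 74672 entries for transcripts of at least 600 nt, or 20.5%. By cell line, 1681 of 18160 human transcripts had a start that passed in at least 1 file and 54 passed in all 6. For mouse, 3678 of 12447 passed in at least 1 file and 227 in all 6. The 100 nucleotides that follow nucleotide 200 in the same transcripts served as the comparison region and are called the inner window.

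RNA was probed in HEK293 cells, a human embryonic kidney line, and in V6.5 mouse embryonic stem (mES) cells. Each was split into chromatin, nucleoplasm and cytoplasm. For the in vivo groups, living cells received the acylating reagent NAI-N3 for 5 min at 37 °C and were then fractionated. For the in vitro groups, RNA was purified from the fractions, denatured at 95 °C for 1 min, refolded in a buffer with magnesium and then given the same reagent. The 12 groups were thus 2 cell lines by 3 compartments by 2 treatments, with 1 sample each, and the 6 solvent-treated control samples were not analysed here as groups. Per the series' design text the solvent controls entered the calculation of the scores, and there was 1 such control per compartment, so the in vivo and in vitro scores of a compartment share it. HEK293 and mES libraries were made with different rRNA removal kits and read on different sequencer models, so an effect of the cell line cannot be told apart from one of the library preparation. Both are single cultured lines. Transcripts appear in the files by identifier alone, without gene names, and so neither the cells nor the fractions could be checked against marker genes here.

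The 5′ end of an mRNA carries the cap, to which the initiation complex eIF4F binds, and is usually followed by an untranslated leader that the small ribosomal subunit scans on its way to the start codon. Stable structure close to the cap is known to hinder that loading, and helicases such as eIF4A unwind leaders. In icSHAPE, NAI-N3 marks the 2′-hydroxyl of flexible nucleotides and reverse transcription stops at the mark, so that a score near 1 describes a reactive, mostly unpaired nucleotide and a score of 0 an unreactive one.

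With 1 sample per group there is no replicate spread, and no test between groups, p-value or standard error is given. Each percent of transcripts is printed with its exact (Clopper-Pearson) 95% binomial interval. These intervals cover only the counting of transcripts within a file or pair of files, and they are too narrow because transcripts can share a gene and its sequence. Depth in reads is unknown. The number of scored nucleotides per file ran from 911595 (HEK293 chromatin in vivo) to 12871282 (mES nucleoplasm in vitro), and no transcript had a score in its first 6 or last 30 positions.

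Chromatin gave the fewest starts. In HEK293 cells 149 starts passed in chromatin in vivo and 429 in vitro, against 739 and 1003 in nucleoplasm and 730 and 1084 in cytoplasm. In mES cells 594 and 468 passed in chromatin, 2565 and 2647 in nucleoplasm and 2701 and 2166 in cytoplasm. Starts therefore describe well-covered RNAs: their median deposited abundance value was above that of all transcripts of at least 600 nt in every file, at 21.6 against 8.88 in HEK293 chromatin in vivo and 41.2 against 32.7 in mES cytoplasm in vitro, for example. Coverage thinned toward the 5′ end itself. Between 29.1% and 49.7% of nucleotides 7 to 16 had a score, against 95.7% to 99.8% of nucleotides 47 to 56, and the median first scored nucleotide lay between 12 and 19.5. No start shared its whole pattern of scores with another in the same file. Starts just inside the coverage limit, with 60 to 64 scored nucleotides, had mean scores of 0.136 to 0.258, and those just outside it, with 55 to 59, had 0.147 to 0.221.

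Reactivity was highest at the very beginning of the transcript and fell over the next 30 nucleotides in all 12 files. In HEK293 cells the mean score over nucleotides 7 to 16 was 0.387 in chromatin in vivo, 0.339 in chromatin in vitro, 0.366 and 0.296 in nucleoplasm in vivo and in vitro, and 0.326 and 0.308 in cytoplasm. Over nucleotides 37 to 46 of the same set the means were down to 0.226, 0.183, 0.263, 0.204, 0.219 and 0.203. From there on the HEK293 profiles stayed almost level to the end of the start.

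In mES cells the means over nucleotides 7 to 16 were 0.339 and 0.306 in chromatin in vivo and in vitro, 0.314 and 0.358 in nucleoplasm and 0.395 and 0.373 in cytoplasm. The mES profiles kept falling for longer, to 0.171 in chromatin in vivo at nucleotides 47 to 56 and to 0.178, 0.176, 0.206, 0.215 and 0.203 in the other files, in the same order, at nucleotides 57 to 66. They then rose again, to between 0.204 and 0.240 over the last 10 nucleotides of the start. All 6 mES profiles over all starts thus had their lowest point between nucleotides 47 and 66, and the fall from the 5′ end was seen in both cell lines.

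**Figure D1:**
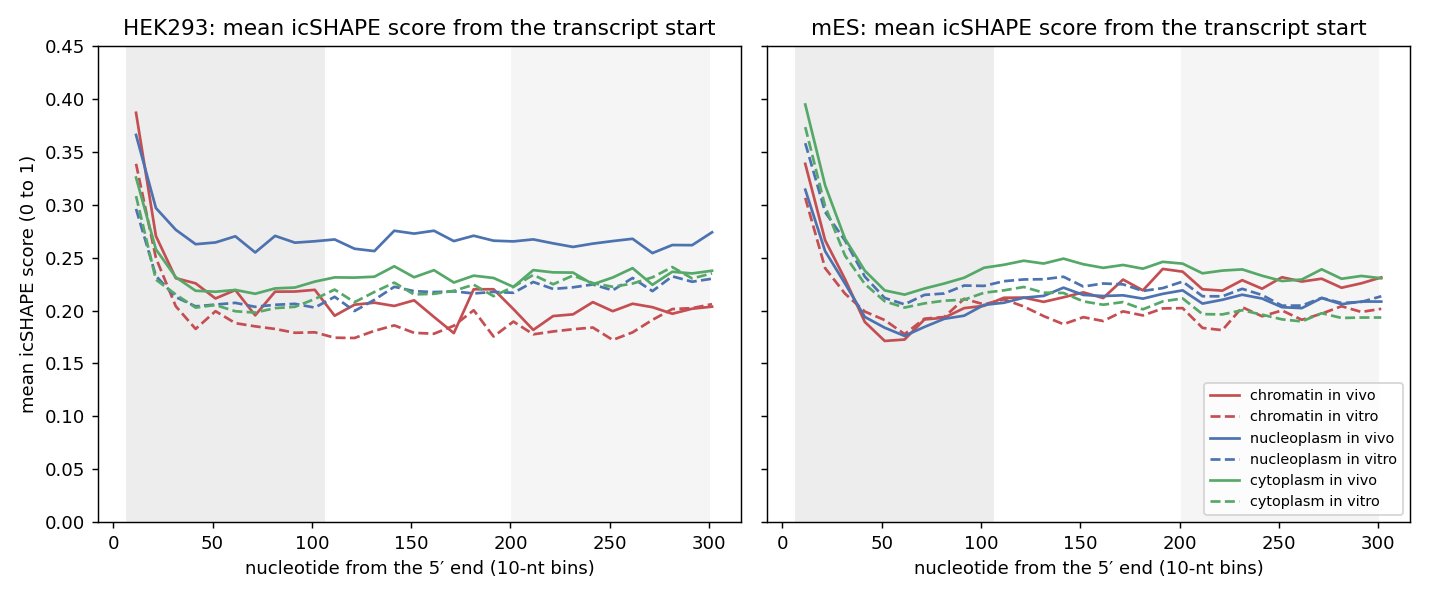
Mean icSHAPE score over all starts of a file in 10-nt bins by position from the 5′ end, with solid lines for in vivo and dashed lines for in vitro files, colours for compartments, and shading over the start and the inner window. The curves begin high, with means of 0.296 to 0.395 over nucleotides 7 to 16, and fall over the first 30 positions in all 12 files.

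Because fewer starts are scored close to the 5′ end, the profile was also taken over starts with at least 8 scored nucleotides in every 10-nt bin, so that each point holds the same transcripts. These numbered 50 (HEK293 chromatin in vivo) to 699 (mES cytoplasm in vivo). Nucleotides 7 to 16 again had the highest mean, at 0.278 (HEK293 nucleoplasm in vitro) to 0.431 (HEK293 chromatin in vivo), and the ratio of this mean to that of the lowest bin lay between 1.42 (HEK293 nucleoplasm in vivo) and 2.02 (mES chromatin in vivo). The fall continued over each of the first 3 steps between bins in 11 of 12 files, the other being HEK293 cytoplasm in vivo, which was level after the second step. The place of the lowest bin differed from that over all starts in some files. It was nucleotides 37 to 46 in both mES chromatin files, 47 to 56 in mES nucleoplasm and cytoplasm in vivo and 57 to 66 in those in vitro. In HEK293 nucleoplasm in vivo and in vitro, HEK293 cytoplasm in vitro and mES chromatin in vivo the second bin was already at or below the level of the inner window.

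Fully reactive nucleotides made up much of the height at the 5′ end. Scores of exactly 1 were given to 10.2% (HEK293 nucleoplasm in vitro) to 21.8% (mES cytoplasm in vitro) of scored nucleotides 7 to 16, and this was the highest share of the first 10 bins in 12 of 12 files. In the inner window the share was 2.79% to 6.38%. Scores of 0 were less strongly affected. In HEK293 cytoplasm in vivo 29.8% of nucleotides 7 to 16 were at 0 against 30.4% of the inner window, and in mES cytoplasm in vitro 34.4% against 43.9%. The share of nucleotides with a score and the mean score thus moved in opposite directions along the start, and the part of coverage in the height of the first bin was not tested beyond the same-transcript profile above.

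Within single transcripts the comparison could be made only for starts with at least 8 of nucleotides 7 to 16 scored and a scored inner window, a minority in every file (37 of 149 in HEK293 chromatin in vivo and 661 of 2701 in mES cytoplasm in vivo, for example). In these the first 10 scorable positions were more often the more reactive. A mean of skewed scores over 10 nt can fall below one over 100 nt for most transcripts, so 50% is no reference here and the background was the percent of 10-nt bins in the next window, the 100 nucleotides after nucleotide 300, that were higher than the inner window. In HEK293 cells the percent of transcripts that were higher at nucleotides 7 to 16 was 78.4 in chromatin in vivo (interval 61.8 to 90.2, n = 37, background 39.9%) and 65.96 in chromatin in vitro (50.7 to 79.1, n = 47, background 40.8%). Nucleoplasm gave 54.8% in vivo (47.6 to 61.9, n = 197, background 41.3%) and 58.1% in vitro (51.2 to 64.8, n = 215, background 41.7%). Cytoplasm gave 60.7% (54.1 to 67.0, n = 234, background 40.5%) and 59.2% (52.9 to 65.3, n = 255, background 41.4%). All 6 intervals lay above their background, and that of HEK293 nucleoplasm in vivo reached 50%. With at least 80 scored nucleotides the intervals of HEK293 chromatin in vitro (59.5%, 42.1 to 75.2) and nucleoplasm in vitro (56.2%, 48.6 to 63.6) also reached 50%, and with ranks so did that of HEK293 cytoplasm in vitro (56.1%, 49.75 to 62.3).

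The mES files all had more than 6 in 10 such transcripts. In chromatin the percent was 69.0 in vivo (58.1 to 78.5, n = 87, background 40.3%) and 71.1 in vitro (60.1 to 80.5, n = 83, background 42.2%). In nucleoplasm it was 62.4 (58.2 to 66.4, n = 553, background 43.1%) and 67.1 (63.1 to 71.0, n = 557, background 41.3%), and in cytoplasm 67.2 (63.4 to 70.7, n = 661, background 41.9%) and 68.6 (64.8 to 72.3, n = 625, background 40.2%). The ratio of the mean at nucleotides 7 to 16 to the mean of the inner window in these sets was 1.34 to 1.80 in HEK293 and 1.504 to 1.86 in mES files. A mean above 0.5 over nucleotides 7 to 16 was reached by 17.2% to 35.1% of transcripts, against at most 2.03% over the inner window, which is longer and so varies less.

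The percent of transcripts above the inner window fell along the start. At nucleotides 17 to 26 the interval lay above the background of 10-nt bins in 9 of 12 files, the others being HEK293 nucleoplasm in vitro and both HEK293 cytoplasm files. At nucleotides 27 to 36 it lay above in the same number, 9. By nucleotides 57 to 66 it was above in 1 (mES cytoplasm in vitro, 46.9%) and below in 1 (mES nucleoplasm in vivo, 36.4%). Over the last 10 nucleotides of the start it was above in 5 and below in 0. Mean scores gave a similar picture: that of nucleotides 7 to 16 exceeded that of the inner window in 12 of 12 files, that of nucleotides 57 to 66 in 5 and that of the last 10 nucleotides in 8.

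Taken whole, the start did not differ from the inner window in the same direction in all 12 files. The background for this comparison was the percent of transcripts in which the next window was lower than the inner window. It was taken over all transcripts with those windows scored, whether or not the start passed. It therefore covers a different and larger set than the starts, for example 147 against 94 transcripts in HEK293 chromatin in vivo and 1509 against 763 in HEK293 cytoplasm in vitro. In HEK293 chromatin in vivo 39.4% of transcripts were lower at the start (29.4 to 49.98, n = 94, background 57.8%) and in vitro 37.2% (30.3 to 44.6, n = 188, background 56.6%). In HEK293 nucleoplasm the values were 46.5% in vivo (42.3 to 50.7, n = 555, background 56.5%) and 52.0% in vitro (48.2 to 55.9, n = 669, background 51.7%). In HEK293 cytoplasm they were 52.1% (47.9 to 56.3, n = 566, background 53.9%) and 54.1% (50.5 to 57.7, n = 763, background 50.4%). The human starts thus lay near the background except in chromatin and in nucleoplasm in vivo, where fewer transcripts than the background were lower at the start, and in cytoplasm in vitro, where slightly more were.

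In mES chromatin 48.2% of transcripts were lower at the start in vivo (42.5 to 53.9, n = 309, background 57.4%) and 41.7% in vitro (35.9 to 47.6, n = 288, background 54.8%). In mES nucleoplasm the values were 53.0% in vivo (50.8 to 55.3, n = 1874, background 52.2%) and 35.4% in vitro (33.3 to 37.6, n = 1941, background 54.9%). In mES cytoplasm they were 44.2% (42.1 to 46.4, n = 2115, background 55.3%) and 35.0% (32.8 to 37.2, n = 1820, background 56%). Of the 12 files, refolded mES nucleoplasm and cytoplasm had the highest percent of starts above the inner region, with mean scores of 0.241 against 0.212 in nucleoplasm and 0.232 against 0.196 in cytoplasm. Counted over all files, the interval lay below the background, the side of a higher start, in 8 and above it in 1, HEK293 cytoplasm in vitro. That of mES nucleoplasm in vivo covered its background. Relative to 50%, the interval lay on the side of a higher start in 6 and included 50% in 4. It lay on the side of a lower start in 2 (HEK293 cytoplasm in vitro and mES nucleoplasm in vivo). With the start taken from nucleotide 27 the interval included 50% in 4 of the 6 higher starts, at 49.49% (39.3 to 59.7) and 44.7% (38.0 to 51.6) in HEK293 chromatin in vivo and in vitro, 45.2% (39.7 to 50.7) in mES chromatin in vitro and 48.7% (46.7 to 50.8) in mES cytoplasm in vivo. The other two were refolded mES nucleoplasm and cytoplasm. With ranks the interval of mES cytoplasm in vivo (49.46%, 47.3 to 51.6) and that of HEK293 chromatin in vivo (41.5%, 31.4 to 52.1) included 50% as well. Both lower starts turned to 49.3% and 49.7% when only nucleotides above 0 were used, and mES nucleoplasm in vivo turned to 49.48% with at least 80 scored nucleotides.

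**Figure D2:**
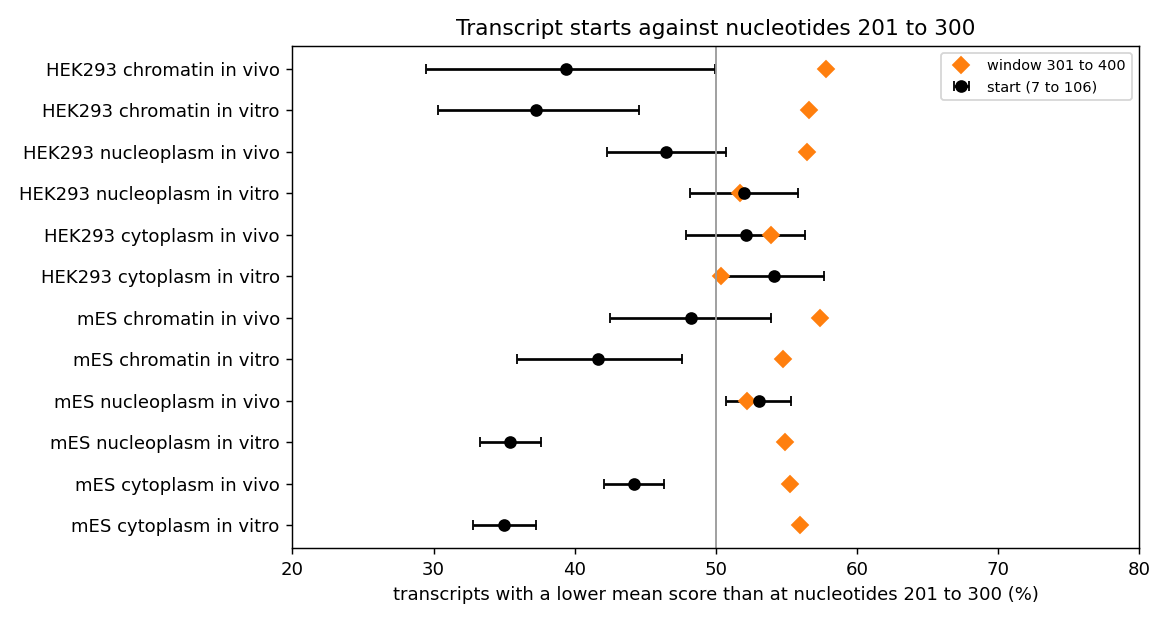
Percent of transcripts with the lower mean score at the start than in the inner window, by file, with exact 95% binomial intervals (black points), beside the percent lower in the next window (orange diamonds). The diamonds cover all transcripts with those windows scored, whether or not the start passed. The refolded mES nucleoplasm and cytoplasm files sit furthest to the left, at 35.4% and 35.0%, against backgrounds of 54.9% and 56%.

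In mES nucleoplasm in vivo longer transcripts were more often lower at the start than in the inner window. There 49.1% (46.1 to 52.1, n = 1106) of transcripts under 2000 nt were lower at the start, 57.4% (53.3 to 61.4, n = 594) of those from 2000 to under 5000 nt and 63.2% (55.6 to 70.4, n = 174) of those of 5000 nt or more. The mean at the start hardly differed between the classes, at 0.204, 0.212 and 0.203, while that in the inner window was 0.199, 0.225 and 0.232. In mES cytoplasm in vivo the values by class were 41.0%, 50% and 51.8%. Refolded mES nucleoplasm showed no such order, at 34.3%, 37.5% and 35.4%. Split at the median abundance value, the more abundant mES cytoplasm transcripts were lower at the start less often, at 41.3% (38.4 to 44.4) against 47.1% (44.0 to 50.1) in vivo and 32.1% (29.1 to 35.2) against 37.9% (34.7 to 41.2) in vitro. In HEK293 cytoplasm the order was the opposite, at 56.2% (50.2 to 62.0) for the more abundant against 48.1% (42.1 to 54.0) in vivo and 56.2% (51.0 to 61.2) against 52.1% (47.0 to 57.2) in vitro. The differences themselves were not tested.

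The comparison of living cells with refolded RNA asked how starts are folded in the cell relative to the RNA alone. Means were taken over nucleotides scored in both files, and the background was the percent over all consecutive 100-nt windows of the pair. In HEK293 chromatin 52.1% of starts were higher in vivo (43.6 to 60.4, n = 146, background 35.9%), with mean scores of 0.227 in vivo and 0.211 in vitro. In HEK293 nucleoplasm 77.9% were higher (74.8 to 80.9, n = 739, background 36.4%), with means of 0.273 and 0.212. In HEK293 cytoplasm 54.7% were higher (51.0 to 58.4, n = 709, background 31.1%), with means of 0.229 and 0.210. Human starts were thus more often higher in vivo than windows in general, by far the most in nucleoplasm. Later windows of the same transcripts were higher in vivo for 46.6% in chromatin, 39.8% in nucleoplasm and 31.0% in cytoplasm. The interval of the chromatin starts included that value, and those of nucleoplasm and cytoplasm lay above theirs.

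Mouse starts stood on the other side of their background. In mES chromatin 55.7% of starts were higher in vivo (51.0 to 60.2, n = 467, background 73.1%), with means of 0.215 and 0.202. In mES nucleoplasm 30.3% were higher (28.5 to 32.1, n = 2493, background 53.4%), with means of 0.199 and 0.232. In mES cytoplasm 64.1% were higher (62.0 to 66.1, n = 2158, background 77.5%), with means of 0.247 and 0.227. The direction in mES chromatin and cytoplasm depended on how scores were treated: with ranks within the file 41.1% and 47.2% were higher in vivo, and over nucleotides above 0 in both files 44.8% and 45.5%. The other 4 pairs did not turn under the alternatives that were run.

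The same transcripts allowed the start to be set against the inner window, with the same count for the next window against the inner window as background. In HEK293 cells the in vivo minus in vitro difference was larger at the start for 57.6% of transcripts in chromatin (46.9 to 67.9, n = 92, background 53.7%), 60.2% in nucleoplasm (55.97 to 64.3, n = 555, background 47%) and 55.8% in cytoplasm (51.6 to 60.05, n = 548, background 49.7%). In mES cells it was larger at the start for 38.9% in chromatin (33.2 to 44.8, n = 288, background 43.8%), 33.5% in nucleoplasm (31.3 to 35.7, n = 1858, background 51.2%) and 42.3% in cytoplasm (40.1 to 44.7, n = 1816, background 50.3%). The interval lay above its background in 2 of the human pairs, nucleoplasm and cytoplasm, and below it in 2 of the mouse pairs, nucleoplasm and cytoplasm. Relative to 50%, starts leaned toward in vivo reactivity, relative to the inner region, in 3 of 3 human pairs, with an interval that includes 50% in chromatin, and away from it in 3 of 3 mouse pairs. Against the next window the mES chromatin value moved to 48.4%. This comparison was chosen after the data were seen.

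The percent higher in vivo changed with distance from the 5′ end. Among 297 HEK293 nucleoplasm transcripts with the first 6 windows of 100 nt all scored, 72.1% were higher in vivo in the first window, which is the start, 65.7% in the third and 44.8% in the sixth. Among 293 HEK293 cytoplasm transcripts the percent went from 55.3 to 44.7 and 33.8 in the same windows, and among 49 in HEK293 chromatin from 57.1 to 53.1 and 36.7. In all 3 human pairs the first window had the highest percent, and by the sixth fewer than 1 in 2 transcripts were higher in vivo. The second window was close in nucleoplasm, at 70.7% (65.2 to 75.8) against 72.1% (66.6 to 77.1) in the first. In cytoplasm it had 50.5% (44.6 to 56.4) against 55.3% (49.4 to 61.1), and in chromatin 46.9% (32.5 to 61.7) against 57.1% (42.2 to 71.2). These intervals overlapped, so the first window was not set apart from the second.

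In mES cells the order ran the other way. Among 1257 nucleoplasm transcripts the percent higher in vivo rose from 25.4 in the first window to 45.3 in the third and 50.5 in the sixth. Among 1344 cytoplasm transcripts it rose from 65.3 to 80.0 and 81.1, and among 157 in chromatin from 63.1 to 77.7 and 74.5. Most of the mouse change was complete by the third window, whereas the human nucleoplasm values were still falling from the fifth (54.2%) to the sixth.

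**Figure D3:**
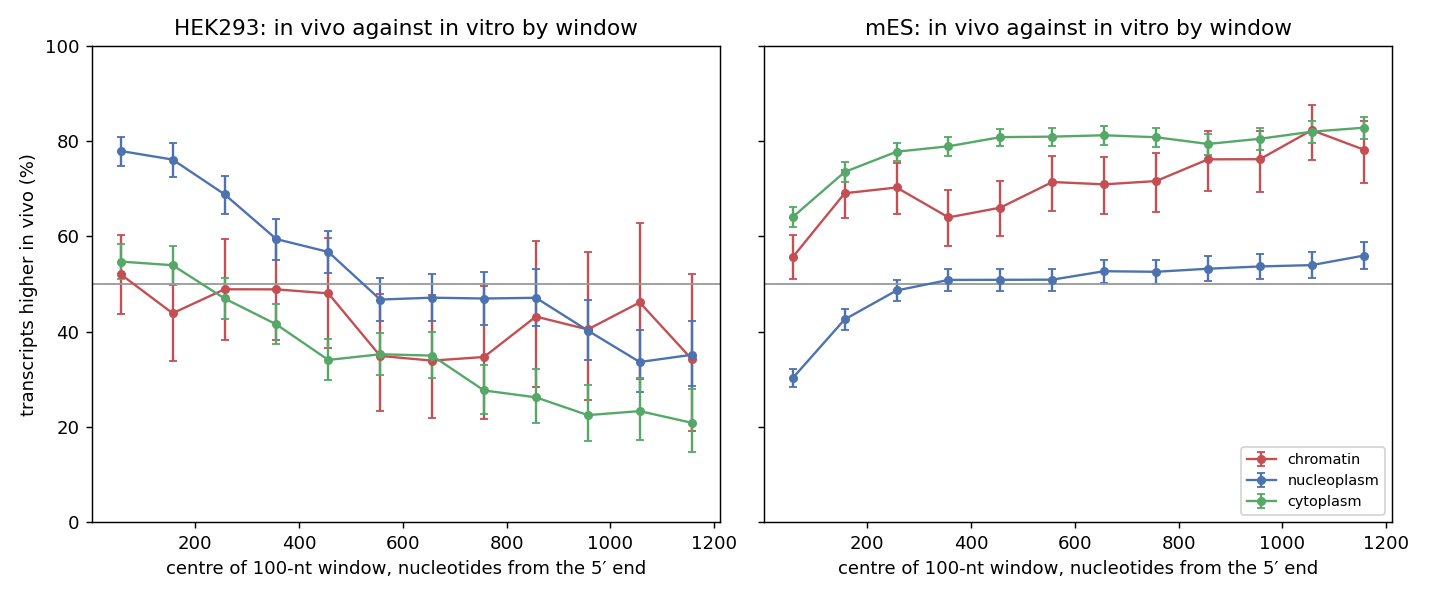
Percent of transcripts with the higher mean score in vivo than in vitro for consecutive windows of 100 nt from nucleotide 7, by compartment, with exact 95% binomial intervals. In HEK293 nucleoplasm the percent starts at 77.9 and falls, and in mES nucleoplasm it starts at 30.3 and rises.

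The comparison of compartments asked whether starts are folded differently on chromatin, in nucleoplasm and in cytoplasm. In bulk fractions, fewer molecules of an RNA and a different mixture of its isoforms cannot be told apart from a change of fold. In HEK293 cells in vivo chromatin exceeded nucleoplasm for 58.5% of starts (47.1 to 69.3, n = 82, background 56.8%) and cytoplasm for 65.5% (51.9 to 77.5, n = 58, background 62.3%). Nucleoplasm was above cytoplasm for 68.3% (64.1 to 72.3, n = 520, background 56%), with mean scores of 0.264 and 0.230. Only the last of these lay clearly above its background. Among 386 transcripts with both windows scored, nucleoplasm was above cytoplasm for 68.9% at the start and 62.2% in the inner window. The difference was larger at the start for 53.4% (48.3 to 58.4), an interval that included an even split. The lead of nucleoplasm was thus not shown to be greater at the start than further in.

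Among refolded HEK293 starts those from chromatin were lower than those from nucleoplasm, and the intervals of the other pairs included 50%. Chromatin RNA was above nucleoplasm for 38.1% (28.8 to 48.1, n = 105, background 25.6%) and above cytoplasm for 45.7% (33.7 to 58.1, n = 70, background 30.8%), and nucleoplasm was above cytoplasm for 48.6% (44.9 to 52.3, n = 737, background 46.4%). With ranks within the file, refolded chromatin starts turned to 81.9% above nucleoplasm and moved to 78.6% above cytoplasm. The order of refolded HEK293 chromatin starts thus rested on the scale of the scores.

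In mES cells in vivo the cytoplasm had the most reactive starts. Chromatin was above nucleoplasm for 62.3% of starts (57.7 to 66.8, n = 454, background 78.6%), with means of 0.207 and 0.187, and turned to 44.5% with ranks. Chromatin was above cytoplasm for 31.7% (26.6 to 37.2, n = 309, background 71.4%), with means of 0.217 and 0.248. Nucleoplasm was above cytoplasm for 18.2% (16.4 to 20.01, n = 1833, background 39%), with means of 0.203 and 0.241. Windows in general were more often higher in chromatin than in cytoplasm and starts were more often lower, so that starts and background fell on opposite sides of 50%.

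Within the same transcripts, the mES chromatin minus cytoplasm difference in vivo was larger at the start than in the inner window for 28.2% (21.1 to 36.1, n = 149), and 38.9% were higher in chromatin at the start against 55.7% in the inner window. For nucleoplasm minus cytoplasm the difference was larger at the start for 32.1% (29.6 to 34.7, n = 1301), with 15.9% higher in nucleoplasm at the start and 27.7% in the inner window. For chromatin minus nucleoplasm it was larger at the start for 49.4% (42.8 to 55.9, n = 235), with 77.4% higher in chromatin at the start and 80.4% in the inner window. The lead of the cytoplasm over nucleoplasm was thus greater at the start than in the inner window. Against chromatin the cytoplasm led at the start but not in the inner window. There the 55.7% higher in chromatin had an interval of 47.3 to 63.8, which included an even split.

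Refolded mES starts showed part of the same order. Chromatin was above nucleoplasm for 20.5% (16.6 to 24.9, n = 390, background 33.4%) and above cytoplasm for 24.9% (19.4 to 31.0, n = 229, background 58.6%). Nucleoplasm was above cytoplasm for 57.3% (54.9 to 59.8, n = 1622, background 71%), which turned to 36.8% with ranks and to 43.6% over nucleotides above 0. The low position of chromatin against cytoplasm was therefore present in purified RNA as well as in cells. Over the 6 mES pairs of compartments, the interval for a larger difference at the start than in the inner window lay below 50% in 5. Over the 6 HEK293 pairs it lay above 50% in 1, chromatin against nucleoplasm in vivo (67.9%, 53.7 to 80.1, n = 53). In that pair 60.4% were higher in chromatin at the start and 58.5% in the inner window. No next-window background was taken for these compartment differences, here or above. For in vivo against in vitro that background ran from 43.8% to 53.7%, so 50% is an uncertain reference.

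**Figure D4:**
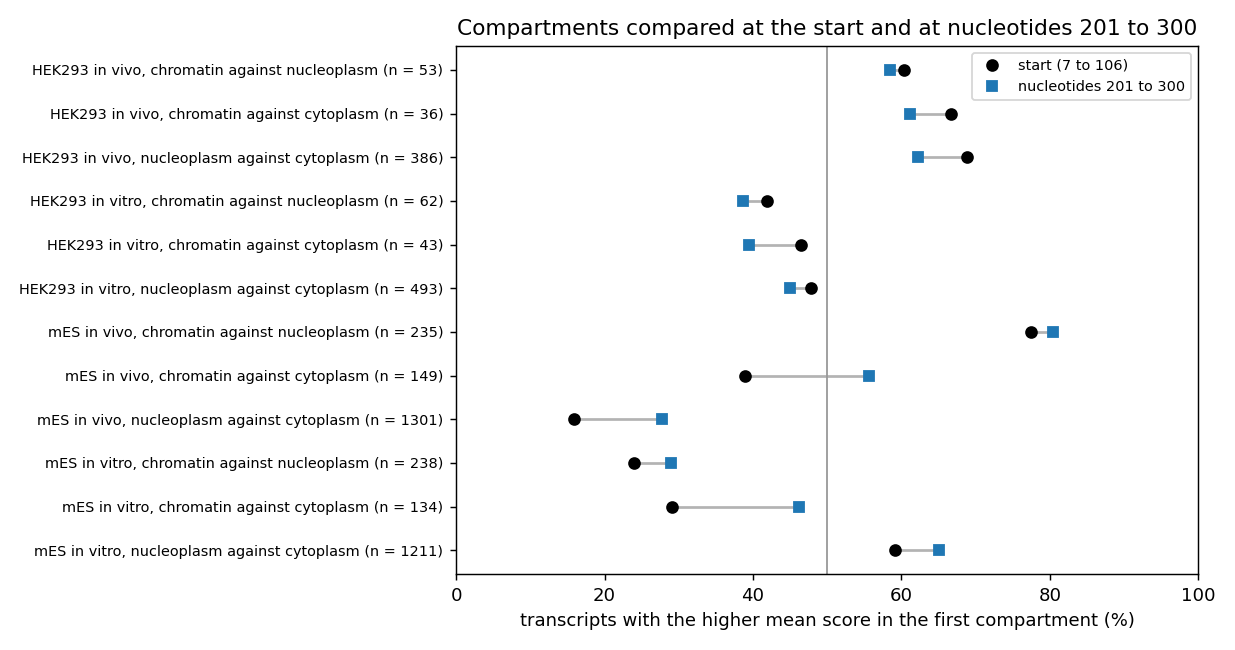
Percent of starts with the higher mean score in the first compartment named, for the 12 pairs of compartments (black circles), beside the percent for the inner window of the same transcripts (blue squares). In mES cells in vivo the starts lie at 38.9% for chromatin against cytoplasm and the inner windows at 55.7%.

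The pattern of reactive and unreactive nucleotides within a start was kept between cells and refolded RNA about as well as elsewhere. Across the nucleotides of a transcript, the median Pearson r between in vivo and in vitro profiles at the start was 0.6002 in HEK293 chromatin, 0.685 in HEK293 nucleoplasm and 0.547 in HEK293 cytoplasm. For mES cells the medians were 0.643, 0.661 and 0.617. In the inner window the medians were 0.607, 0.663, 0.532, 0.599, 0.623 and 0.588 in the same order. In mES nucleoplasm r was higher at the start for 58.2% of transcripts (55.9 to 60.4, n = 1858). Of all 18 pairs, including those between compartments, the median was higher at the start in 15. These r values are across nucleotides of 1 transcript, which are not independent, and the in vivo and in vitro scores share a solvent control.

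The level of a start was also partly kept from file to file. Over transcripts, Spearman's rho between the in vivo and in vitro start means was 0.504, 0.558 and 0.521 for the HEK293 fractions in the same order and 0.484, 0.557 and 0.656 for those of mES cells. Between compartments of mES cells it reached 0.827 (nucleoplasm against cytoplasm in vitro). These are descriptions across transcripts that share the libraries of a file.

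A periodicity of 3 nt, as codons have, was rarer at the start than further in. It was measured as the power of the score profile at that period over the mean power at other frequencies, in windows of 90 nt with every nucleotide scored. A ratio above 5 was reached in the last 90 nt of the start by 3 of 205 transcripts in HEK293 nucleoplasm in vivo (1.46%) and by 9 of 251 in HEK293 cytoplasm in vivo (3.59%), against 24 (11.7%) and 37 (14.7%) in the 90 nt after nucleotide 200. In mES nucleoplasm in vivo it was reached by 38 of 720 (5.28%) against 51 (7.08%), and in mES cytoplasm in vivo by 45 of 862 (5.22%) against 54 (6.26%). The share was lower at the start in 12 of 12 files, though on as few as 1 transcript against 2 in HEK293 chromatin in vitro. In 6 files the period was stronger in the 90 nt after nucleotide 200 than in the last 90 nt of the start for most transcripts, with an interval above 50%. At a control frequency the share above 5 at the start was at most 3.70% (HEK293 chromatin in vitro). After nucleotide 200 it was at most 1.53% (mES nucleoplasm in vivo), and the 3-nt share exceeded the control in every file. At the start the 3-nt share did not exceed the control in both HEK293 chromatin files and HEK293 nucleoplasm in vivo. Nor did it in HEK293 cytoplasm in vitro and mES chromatin in vitro. Where the start codon lies in each transcript was not known here, so leader and coding sequence were not separated. This measure was chosen with results of these data known.

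Starts that passed in all 6 files of a cell line show how much single transcripts vary. The 54 HEK293 starts had means over the 6 files from 0.101 to 0.416, with a median of 0.245, and a median range of 0.198 between the lowest and the highest file. The 227 mES starts ran from 0.0630 to 0.458, with a median of 0.243 and a median range of 0.135. Of the HEK293 starts, 23 were higher in vivo in all 3 compartments, 4 were lower in all 3 and 27 were mixed, and of the mES starts 40, 51 and 136. These counts rest on the comparisons above and are given as a description.

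The highest HEK293 start belonged to ENST00000371646 (2572 nt). Its mean scores were 0.422 and 0.325 in chromatin in vivo and in vitro, 0.474 and 0.330 in nucleoplasm and 0.524 and 0.422 in cytoplasm. All 6 values lay above the 90th percentile over the starts of the same file, and in each compartment the living cells gave the higher value. Its first 20 scorable nucleotides were lower than its whole start in all 6 files, at 0.343 in chromatin in vivo and 0.340 in cytoplasm in vivo, for example. The same held for ENST00000389680, described below. The lowest was ENST00000541790 (1534 nt), with 0.108 and 0.0562 in chromatin, 0.123 and 0.0644 in nucleoplasm and 0.114 and 0.139 in cytoplasm. Its first 20 scorable nucleotides were also low, between 0.0398 and 0.139, so the usual height of the 5′ end was not seen in it. The same transcript was more reactive in the inner window in nucleoplasm in vivo (0.295) and in cytoplasm (0.263 in vivo and 0.249 in vitro).

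The largest mean in vivo minus in vitro difference in HEK293 cells, 0.298, was that of ENST00000429829 (19275 nt). Its start had 0.441 against 0.264 in chromatin, 0.539 against 0.110 in nucleoplasm and 0.504 against 0.215 in cytoplasm. In the inner window its values were 0.236 against 0.161 in chromatin, 0.0765 against 0.0932 in nucleoplasm and 0.222 against 0.197 in cytoplasm, so that in nucleoplasm the direction was turned and in the other fractions the difference was smaller. ENST00000389680 (954 nt) had the most negative difference, -0.169, with 0.172 against 0.288 in chromatin, 0.262 against 0.490 in nucleoplasm and 0.198 against 0.362 in cytoplasm. It was also less reactive in vivo in the inner window, at 0.231 against 0.359 in nucleoplasm.

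In mES cells the highest start was that of ENSMUST00000185676 (3072 nt), with 0.463 and 0.381 in chromatin in vivo and in vitro, 0.366 and 0.516 in nucleoplasm and 0.455 and 0.564 in cytoplasm. The lowest was that of ENSMUST00000006496 (755 nt), with 0.0929 and 0.0485, 0.0496 and 0.0570, and 0.0769 and 0.0534. All 6 of its values were under 0.1, and in the inner window it reached 0.200 and 0.275 in nucleoplasm. ENSMUST00000093201 (1192 nt), the next highest after ENSMUST00000185676, showed the reactive beginning most plainly of the named mouse starts. Its first 20 scorable nucleotides had means of 0.655 to 0.858 in nucleoplasm and cytoplasm, where 99 and 100 start nucleotides were scored. In chromatin the means were 0.635 in vivo and 0.975 in vitro, but only 86 start nucleotides were scored there. The inner window had 0.163 to 0.251 over the 6 files.

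Among mES starts ENSMUST00000146327 (2916 nt) leaned furthest toward living cells. Its values were 0.471 against 0.128 in chromatin, 0.401 against 0.126 in nucleoplasm and 0.261 against 0.0407 in cytoplasm, a mean difference of 0.280. In the inner window the direction was turned in nucleoplasm (0.170 against 0.281) and cytoplasm (0.121 against 0.255). ENSMUST00000182010 (1831 nt) leaned furthest the other way, by -0.211, with 0.139 against 0.288, 0.0763 against 0.330 and 0.0149 against 0.244. In cytoplasm in vivo it was almost unreactive in the inner window as well (0.0132).

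**Figure D5:**
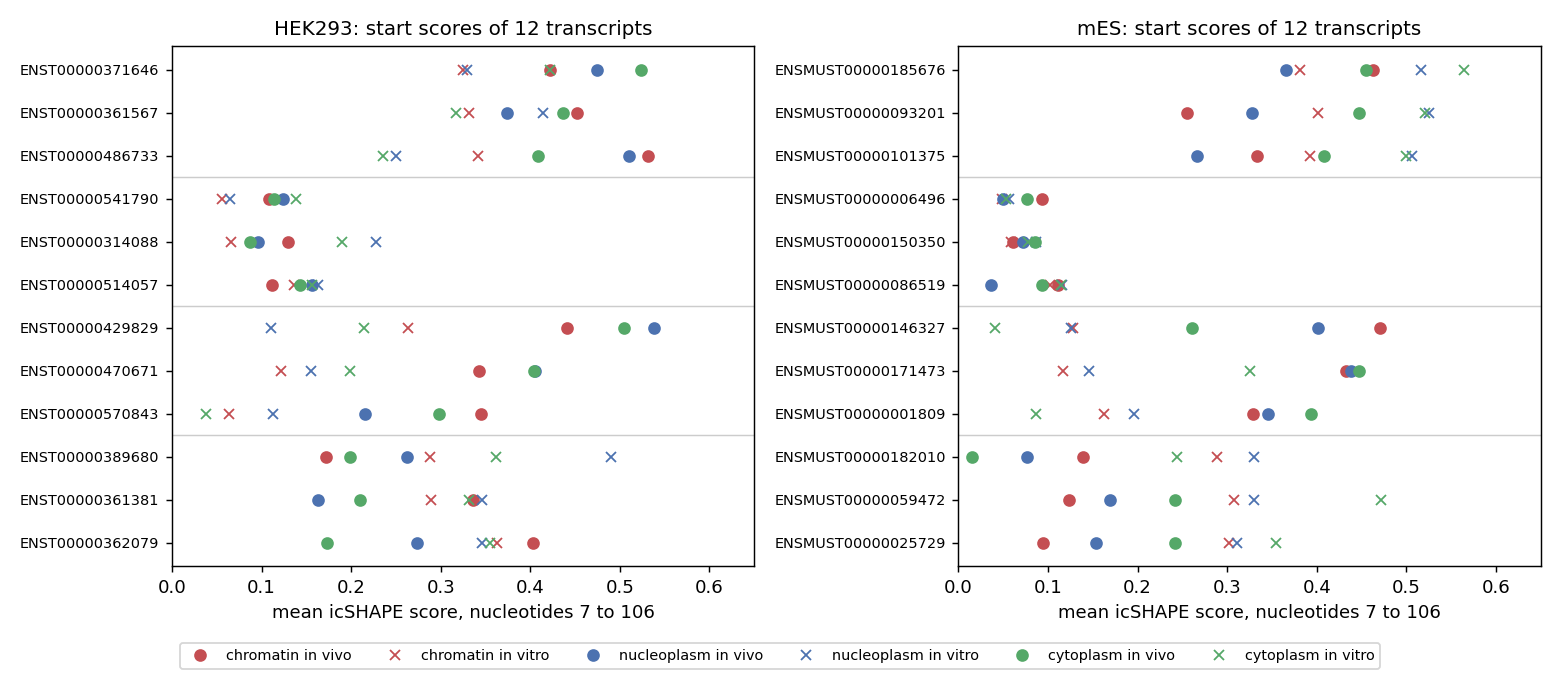
Mean score at the start in each of the 6 files of a cell line for 12 human and 12 mouse transcripts chosen for the highest and lowest mean level and the highest and lowest in vivo minus in vitro difference, with filled circles for in vivo and crosses for in vitro files. In the third block the circles lie to the right of the crosses, as for ENST00000429829 with 0.539 against 0.110 in nucleoplasm.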

How the data were processed

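The deposited icSHAPE files list transcripts by identifier with their length in nt, an abundance signal of unstated unit, and for every nucleotide a reactivity score between 0 and 1 or none. The authors' score was used as it stood, and the deposited abundance signal only to describe and split starts. Bowtie2, UMI-tools and the builds hg38 and mm10 are named per the submitters' processing notes, without tool versions. Whether a file pools replicates was not stated.

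Window means needed at least 60 scored nucleotides, taken over positions scored in both files for a pair, and 10-nt bins at least 8. Percents of transcripts have exact binomial intervals. Scripts used Python 3.11.15, NumPy 2.4.6, SciPy 1.17.1 and Matplotlib 3.10.9 and were tested on simulated data. Transcripts were named by rule: per cell line, among starts passing in all 6 files, the 3 highest and 3 lowest in mean level and in mean in vivo minus in vitro difference. The text describes 9 of these in full. No gene list could be applied because gene names do not accompany the identifiers. The regions and tests were chosen with earlier results of these data known. The 6 solvent controls and the 4 irCLIP samples were not analysed here. Alternatives used ranks, nucleotides above 0, at least 80 scored nucleotides, other windows and 1 transcript per shared score pattern.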

Additional observations from a re-analysis of the deposited data

Results flagged for a closer look

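In vivo minus in vitro differences at the start, less those over the 100 nucleotides after nucleotide 200 of the same transcript, had opposite signs in the 2 cell lines. The median over transcripts was 0.00839 in HEK293 chromatin, 0.0183 in HEK293 nucleoplasm and 0.0121 in HEK293 cytoplasm. In mES cells it was -0.0197 in chromatin, -0.0324 in nucleoplasm and -0.0147 in cytoplasm. All 3 human compartments lay above 0 and all 3 mouse compartments below it. In chromatin, however, the percent of transcripts with the larger difference at the start was not set apart from its next-window background. It was 57.6% (46.9 to 67.9, background 53.7%) in HEK293 and 38.9% (33.2 to 44.8, background 43.8%) in mES cells. The difference between the cell lines was not tested, since each group held 1 sample, and the cell line cannot be told apart from the library preparation.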

How the results depend on the processing

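No paired analysis was possible because each group held 1 sample, and for the same reason no replicate could be left out. Of 174 recomputed values, 114 stayed within the interval of the reported value, 49 moved beyond it and 11 were counted as turned in direction. A turn was counted only where the interval of the reported value excluded an even split of transcripts. Other values that crossed an even split were counted as within or beyond the interval. HEK293 cytoplasm in vivo, for example, went from 52.1% lower at the start to 44.2% over nucleotides above 0. Refolded HEK293 chromatin starts above cytoplasm went from 45.7% to 78.6% with ranks. No start shared a score pattern with another, so keeping 1 transcript per pattern could not change a value and is not counted.

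For the percent of transcripts lower at the start than in the inner window, ranks gave 55.9 (HEK293 nucleoplasm in vitro), 57.2 and 60.2 (HEK293 cytoplasm in vivo and in vitro), 55.8 and 38.4 (mES nucleoplasm) and 49.46 and 38.1 (mES cytoplasm). Nucleotides above 0 gave 44.2 and 49.3 in HEK293 cytoplasm, 49.7 and 38.1 in mES nucleoplasm and 39.5 in mES cytoplasm in vivo. At least 80 scored nucleotides gave 49.48 and 32.2 in mES nucleoplasm and 40.2 and 32.8 in mES cytoplasm. Starting at nucleotide 27 gave 44.7 (HEK293 chromatin in vitro), 56.1 (HEK293 nucleoplasm in vitro), 56.8 and 40.7 (mES nucleoplasm) and 48.7 and 39.7 (mES cytoplasm). Against the next window the values were 59.3 in HEK293 and 32.6 in mES cytoplasm in vitro.

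For starts higher in vivo, ranks gave 61.0 in HEK293 chromatin, 90.0 in nucleoplasm and 70.8 in cytoplasm, and 41.1 and 47.2 in mES chromatin and cytoplasm. Nucleotides above 0 gave 81.7 for HEK293 nucleoplasm and 65.3 for its cytoplasm, then 44.8, 33.1 and 45.5 for mES chromatin, nucleoplasm and cytoplasm, and at least 80 scored nucleotides gave 60.7 in mES chromatin.

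Between compartments (chromatin against nucleoplasm, chromatin against cytoplasm, nucleoplasm against cytoplasm), ranks gave 69.5, 79.3 and 64.04 in HEK293 in vivo, 81.9, 78.6 and 41.2 in vitro, 44.5, 26.2 and 28.6 in mES in vivo and 26.2, 18.8 and 36.8 in vitro. Nucleotides above 0 gave 50.8 for the first and 20.8 for the third mES pair in vivo, and 29.2 and 43.6 in vitro. At least 80 scored nucleotides gave 72.3 and 39.1 for the first pairs of mES in vivo.

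The results on nucleotides 7 to 16 and on the difference between start and inner window were chosen after seeing the data, as were their alternatives and backgrounds. The former moved over nucleotides above 0, to 69.9 (HEK293 cytoplasm in vivo), 69.0 and 72.8 (mES nucleoplasm) and 77.4 and 78.4 (mES cytoplasm). The latter moved to 48.4 in mES chromatin against the next window and to 36.05 in mES nucleoplasm over nucleotides above 0. The causes of these changes were not tested. Read depth is unknown, so no interval covers counting of reads.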
